A study of Sus scrofa with 6 samples.

Results

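The mitochondrial genome of the pig was examined as a set of 37 genes, chosen by their Ensembl identifiers, which run from ENSSSCG00000018060 to ENSSSCG00000018096 in map order. All 37 were among the 25322 genes of the table, and they comprised 13 protein genes, 2 rRNA genes and 22 tRNA genes. The symbols of the 13 protein genes in a gene name table matched the map, and the order of gene classes matched that of the RefSeq mitochondrial chromosome at 37 of 37 positions. The table holds 6 RNA-seq libraries, 3 from pXEN-like and 3 from piPS cells, with values in FPKM (fragments corrected for the length of the transcript and the size of the library). pXEN-like cells are extraembryonic endoderm-like cells that grew out of whole in vitro fertilised blastocysts of day 6 to 7, on mouse feeder cells under reduced oxygen, in a serum-free medium with LIF and bFGF. piPS cells, named piPSCs in the labels, are induced pluripotent stem cells made from porcine fetal fibroblasts, which were received from another laboratory and kept in pEPSCM medium. Both were at passage 15 to 25. Neither the number of lines behind the libraries nor the breed was given in the sources used here, and nothing states that libraries came from separate cultures, so that p-values measure only the spread between these libraries. Cell type, origin and culture medium differed together and cannot be told apart. In bulk libraries, a change of RNA per cell and a change in the number of cells that hold it cannot be told apart either.

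Mitochondrial DNA is transcribed from both strands as long precursors, which are cut at the tRNAs that lie between most genes and so release the mRNAs and rRNAs. The protein genes encode core subunits of the respiratory chain (the ND genes of complex I, CYTB of complex III and the COX genes of complex IV) and of ATP synthase, also called complex V (ATP6 and ATP8). All other subunits come from the nucleus. The 2 rRNAs form the mitochondrial ribosome with imported proteins.

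The FPKM totals of the libraries ran from 2150430 to 10792200 and were dominated by a few genes, so that a share of the total is a poor scale here. The files give no read counts, and the absolute depth is unknown. The steps of low values gave a depth of 0.824 to 2.08 relative to pXEN-like library 3, and the next candidate gave 1 to 1.89 for the same libraries. Of the fixed markers of extraembryonic endoderm, 6 of 7 could be matched to identifiers. GATA6 was 5.49 to 8.61 FPKM in pXEN-like and 0.0170 to 0.264 FPKM in piPS libraries, and HNF4A was 15.2 to 23.1 FPKM against 0.0654 to 0.120 FPKM. GATA4 was at most 2.02 FPKM in pXEN-like libraries and is listed at 0 in piPS libraries 1 and 2, while SPARC was lower in pXEN-like cells. FOXA2 was not called, at 3.44 to 5.69 FPKM against 2.30 to 5.25 FPKM, and AFP stayed at or below 0.432 FPKM in every library. Of 4 pluripotency markers only LIN28A could be matched, at 30.7 to 33.7 FPKM in pXEN-like and 24.2 to 47.7 FPKM in piPS libraries, so that the pluripotent label was not checked here. Of 8 fibroblast markers 5 were matched, and their summed level was 0.1503 to 0.574 FPKM in pXEN-like and 0.0403 to 0.339 FPKM in piPS libraries. CDX2 and TFAP2C, the matched 2 of 4 trophectoderm markers, together stayed at or below 0.137 FPKM in every library. A part of mouse feeder RNA in the mitochondrial values was not tested.

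All 13 protein genes rose in pXEN-like cells, and so did 12S rRNA, while 16S rRNA did not pass the test and none of the 15 fell. These directions were the same under the other scalings of the libraries, except that ATP6, ATP8 and 16S rRNA turned with quantile normalization and 16S rRNA turned with both rescalings without the highest genes. The test was limma on log2(FPKM + 1), and a gene was called at a Benjamini-Hochberg adjusted p under 0.05 over all 9953 features tested if its log2 fold change was also 1 or more in size. Of all features tested, 23.3% were called higher and 30.3% lower in pXEN-like cells. The log2 fold changes of the 13 protein genes had a median of 2.42 and ran from 1.76 to 4.06, where the median of all features was -0.13. Every pXEN-like library was above every piPS library for the 13 protein genes and for 12S rRNA, which was the case for 34.9% of all features tested. The opposite order held for none of these genes and for 40.9% of all features.

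**Figure D1:**
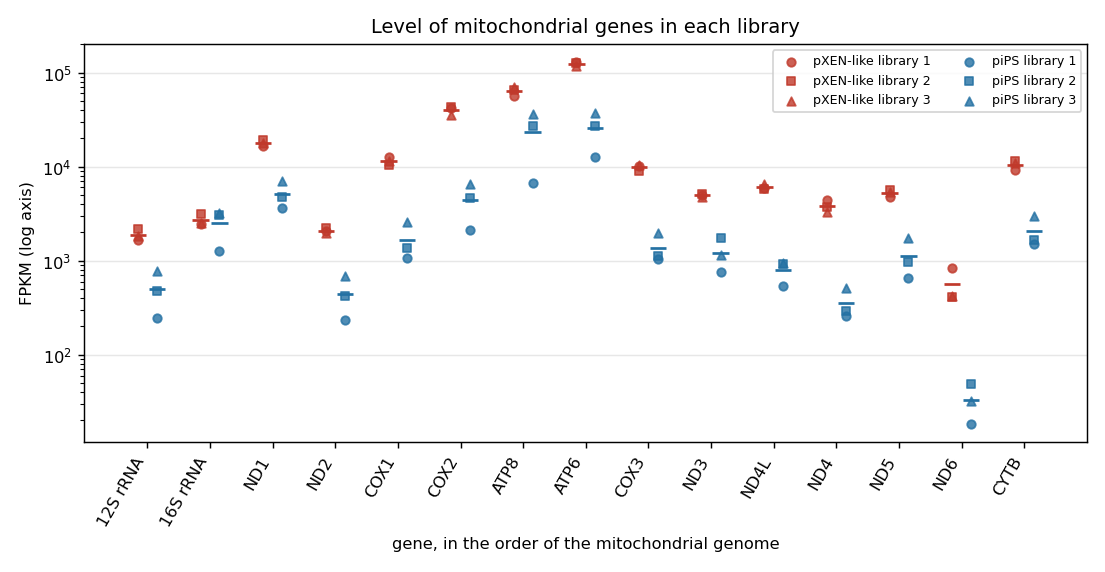
FPKM (log axis) of the 13 protein genes and 2 rRNAs in the order of the mitochondrial genome, with 1 point per library and a horizontal line at the mean of 3 libraries. The pXEN-like libraries lie above the piPS libraries for all genes except 16S rRNA, whose groups overlap, and piPS library 1 is the lowest library throughout.

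Complex I takes electrons from NADH, and 7 of its core subunits are encoded in mitochondrial DNA. ND1 (ENSSSCG00000018065) had 16748, 19022 and 17718 FPKM in pXEN-like libraries 1, 2 and 3 and 3598, 4748 and 7049.6 FPKM in piPS libraries 1, 2 and 3. ND2 (ENSSSCG00000018069) had 2081, 2231 and 1963 FPKM in the same pXEN-like libraries and 237, 423 and 681 FPKM in the piPS libraries. The lowest pXEN-like value exceeded the highest piPS value 2.38 times for ND1 and 2.88 times for ND2. ND3 (ENSSSCG00000018084) had 5023, 5125 and 4775 FPKM in pXEN-like and 759, 1741 and 1150.2 FPKM in piPS libraries. ND5 (ENSSSCG00000018091), one of the proton-pumping subunits, had 4749.6, 5688 and 5389 FPKM against 652, 963 and 1737 FPKM. These genes had log2 fold changes of 1.85 (ND1), 2.35 (ND2), 2.11 (ND3) and 2.35 (ND5), and ND1 had the smallest change of the complex. With quantile normalization the log2 fold change of ND1 was 0.34, and its call was lost.

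ND4L and ND4 are carried on 1 mRNA with overlapping reading frames. ND4L (ENSSSCG00000018086) had 5947, 5819.8 and 6537 FPKM in pXEN-like and 537, 924 and 933 FPKM in piPS libraries. ND4 (ENSSSCG00000018087) had 4453, 3727 and 3329 FPKM in pXEN-like and 256, 292 and 514 FPKM in piPS libraries. Both stood further apart between the cell types than the other heavy-strand genes of the complex, with ratios of means of 7.64 for ND4L and 10.83 for ND4, and their log2 fold changes were 2.98 (standard error, SE, 0.25, limma adjusted p = 8.6e-05) and 3.49 (SE 0.29, limma adjusted p = 8.1e-05). ND6 (ENSSSCG00000018092) is the single protein gene transcribed from the opposite strand. It had 842, 414 and 420.1 FPKM in pXEN-like libraries and 18.4, 48.7 and 32.2 FPKM in piPS libraries. ND6 was the lowest protein gene in both cell types and had the highest fold of the 13, with a ratio of means of 16.9 and a fitted log2 fold change of 4.06 ± 0.41 (SE; limma adjusted p = 0.00018). A log2 fold change at least as high was found for 1.95% of all features tested. Whether strand was kept in counting is not given in the sources used here, so reads of ND6 and antisense reads of the other strand cannot be told apart.

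The COX genes encode the catalytic core of complex IV, cytochrome c oxidase. COX1 (ENSSSCG00000018075) had 12593, 10403 and 11549.7 FPKM in pXEN-like libraries and 1058, 1365 and 2551 FPKM in piPS libraries. COX2 (ENSSSCG00000018078), which holds the entry site for electrons from cytochrome c, had 42301, 42750.2 and 35058.5 FPKM against 2138, 4659.7 and 6609 FPKM. COX3 (ENSSSCG00000018082) had 10269, 9012 and 10373 FPKM against 1032, 1113 and 1954 FPKM. The genes of this complex moved by similar amounts, with log2 fold changes of 2.89 for COX1, 3.30 for COX2 and 2.91 for COX3, and the lowest pXEN-like value was 4.08 to 5.30 times the highest piPS value. CYTB (ENSSSCG00000018094), the mitochondrially encoded subunit of complex III, had 9135.5, 11526 and 10838 FPKM in pXEN-like and 1491, 1667 and 2993 FPKM in piPS libraries. Its log2 fold change was 2.42 (SE 0.29, limma adjusted p = 0.00034).

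ATP8 and ATP6 also share 1 mRNA and overlap, and both belong to the membrane part of ATP synthase. They had the highest FPKM values of the mitochondrial genome in both cell types. ATP6 (ENSSSCG00000018081), which forms the proton path, had 129351, 125772 and 118046 FPKM in pXEN-like and 12796.5, 27351 and 37386 FPKM in piPS libraries, and it was called with a log2 fold change of 2.40 ± 0.39 (SE; limma adjusted p = 0.0013). ATP8 (ENSSSCG00000018080) had 56222, 64827 and 69718.5 FPKM in pXEN-like and 6705, 27230 and 35841 FPKM in piPS libraries. ATP8 had the smallest change of the 13 protein genes and the largest error, a log2 fold change of 1.76 ± 0.59 (SE; limma adjusted p = 0.031). Without piPS library 1 the log2 fold change of ATP8 was 1.02 (limma adjusted p = 0.010). Its call was lost when any 1 of the pXEN-like libraries was left out (adjusted p = 0.063 to 0.074 from limma), with both rescalings without the highest genes (adjusted p = 0.15 and 0.17) and without a filter on low values (adjusted p = 0.075). With quantile normalization, the log2 fold change was -0.60 for ATP6 and -0.19 for ATP8. Reads in the overlapping stretch of each pair of genes could be counted for either gene, and the counting is not described.

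**Figure D2:**
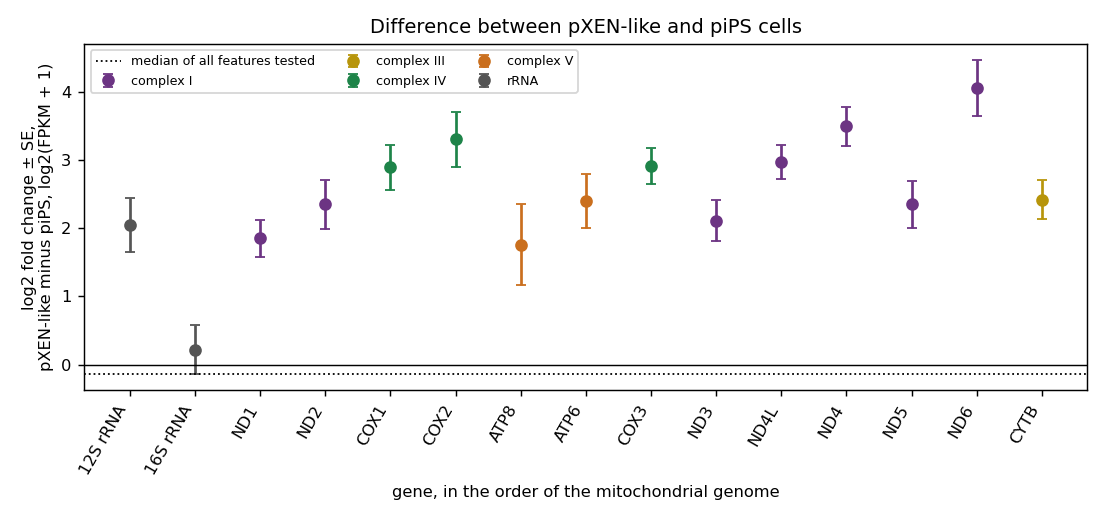
Log2 fold change of each gene on the log2(FPKM + 1) scale, pXEN-like minus piPS, with bars of 1 standard error from limma, coloured by the complex the gene belongs to. With the values as deposited, all protein genes lie between 1.76 and 4.06 and 16S rRNA lies near 0; ATP6, ATP8 and 16S rRNA turned with quantile normalization, and 16S rRNA with both rescalings without the highest genes.

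The rRNAs did not move together. 12S rRNA (ENSSSCG00000018061), of the small ribosomal subunit, had 1648, 2154 and 1833 FPKM in pXEN-like and 246, 476 and 784 FPKM in piPS libraries, and it was called with a log2 fold change of 2.05 ± 0.40 (SE; limma adjusted p = 0.0031). 16S rRNA (ENSSSCG00000018063), of the large subunit, had 2480.2, 3171 and 2510.2 FPKM in pXEN-like and 1281, 3041 and 3185 FPKM in piPS libraries. The groups of 16S rRNA overlapped, and its log2 fold change was 0.22 (SE 0.36, limma adjusted p = 0.60). It became -0.20 without piPS library 1. The study's methods do not state whether rRNA was removed or mRNA was selected before sequencing. The rRNA values here and below may therefore not reflect the levels in the cells. The 22 tRNAs are listed at 0 FPKM in all 6 libraries. Since every cell uses these tRNAs and they are shorter than the fragments of common RNA libraries, a listed 0 gives no information on their level, and no tRNA was tested.

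The piPS libraries varied more in these genes than the pXEN-like libraries. The coefficient of variation over 3 libraries was 28.3% to 64.4% in piPS and 3.62% to 43.9% in pXEN-like cells across the 13 protein genes, with medians of 45.8% and 9.08%. Over all features tested, the medians were 27.3% in piPS and 19.9% in pXEN-like cells. piPS library 1 was the lowest of its group for 13 of 13 protein genes, and piPS library 3 was the highest for 11. The median deviation from the group mean over the 13 genes was -0.60 on the log2 scale in piPS library 1 and 0.62 in library 3, where the medians over all features were 0.11 and -0.07. In pXEN-like cells no library stood out in this way, and its libraries 1, 2 and 3 were the lowest for 4, 4 and 5 of the protein genes. The count of 14 genes called higher was 13 or 14 with each library left out in turn, and it was 14 without piPS library 1.

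Levels were then set against the other genes of the mitochondrial genome in the same library, so that the scaling between libraries cancels. Each library was divided by the geometric mean of its 13 protein genes, the same test was run on all features, and a difference of 0 stands for a gene that moved as the average of the 13. On this scale 3.66% of all features were called higher and 79.2% lower in pXEN-like cells. Of the 13 protein genes, ND6 was called higher, with a difference of 1.41 (SE 0.41, limma adjusted p = 0.012), and none was called lower. Since most features were called on this scale, the adjustment over all features changed p-values little. The unadjusted p from limma was 0.0089 for ND6, 0.019 for ND1 and 0.028 for ND4. No adjustment over the 13 genes alone was made. The ND6 call was lost without pXEN-like library 1, where the difference was 1.10 (adjusted p = 0.062 from limma). ND4 was higher by 0.81 (adjusted p = 0.034 from limma) and ND1 lower by a difference of -0.84 (adjusted p = 0.024 from limma), both short of the fold limit. ATP8, with a difference of -0.93 (adjusted p = 0.060 from limma), was not called. It passed without piPS library 1, with a difference of -1.33 (adjusted p = 0.0013 from limma). The other 9 protein genes differed from the average by between -0.57 (ND3) and 0.62 (COX2), with adjusted p of 0.077 or more. Of the protein and rRNA genes, 16S rRNA departed furthest, at a difference of -2.46 (SE 0.30, limma adjusted p = 0.00021), while 12S rRNA was at -0.64 (adjusted p = 0.074 from limma). The rRNAs are not among the 13 genes that set this scale, on which 79.2% of all features were called lower. As deposited, the log2 fold change of 16S rRNA was 0.22, so its call here is no drop of its own level.

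**Figure D3:**
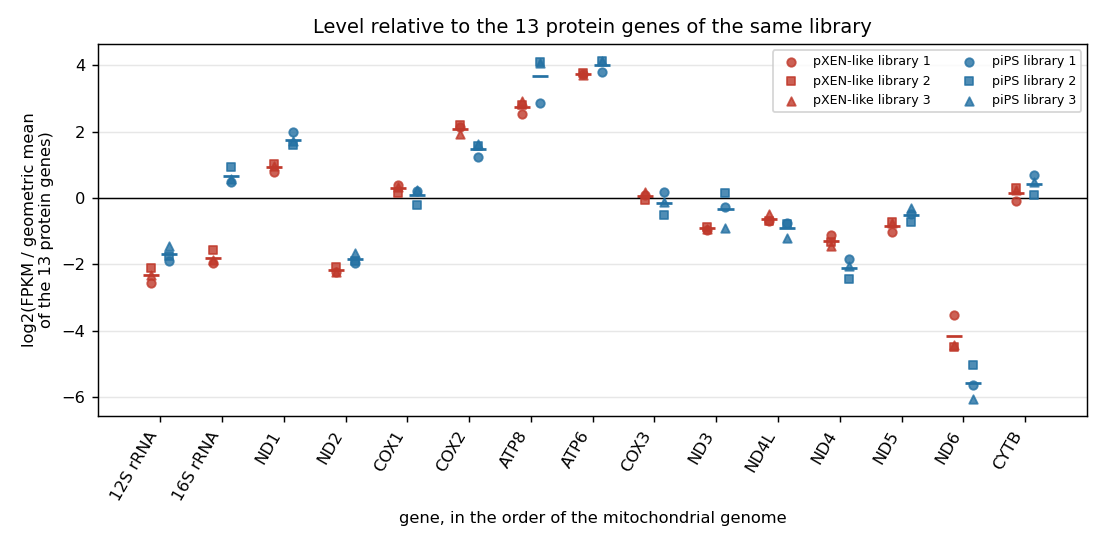
Log2 of FPKM over the geometric mean of the 13 protein genes of the same library, 1 point per library, with a line at the mean of 3 libraries. Mean ND6 is at -4.15 in pXEN-like and -5.57 in piPS cells, and mean 16S rRNA is at -1.80 and 0.67. The means of the other protein genes differ by at most 0.93 in size (ATP8). The groups do not overlap for ND1, ND2, COX2, ATP6, ND4L, ND4, ND5, ND6 and both rRNAs, and they overlap for COX1, ATP8, COX3, ND3 and CYTB.

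Ratios between neighbouring or overlapping genes show the same values in plain numbers. A set of 4 pairs was compared, chosen after the values had been seen, and with 3 libraries against 3 the smallest p that the two-sided exact permutation test allows is 0.1. 12S rRNA over 16S rRNA gave 0.665, 0.679 and 0.730 in pXEN-like libraries 1, 2 and 3, and piPS libraries 1, 2 and 3 gave 0.192, 0.156 and 0.246. The groups did not overlap, and the ratio was 3.54 times as high in pXEN-like cells (exact permutation p = 0.1, 0.2 adjusted over the 4 pairs). ND6 to ND5, which lie next to each other on opposite strands, had a ratio of 0.177, 0.0728 and 0.0780 in pXEN-like and 0.0282, 0.0505 and 0.0185 in piPS libraries (exact permutation p = 0.1, adjusted 0.2). It was also higher in each pXEN-like library than in any piPS library, and pXEN-like library 1 was far above the other two. ATP8 to ATP6 was 0.435 to 0.591 in pXEN-like and 0.524 to 0.996 in piPS libraries, and ND4L to ND4 was 1.34 to 1.96 against 1.81 to 3.16. Both of these overlapping pairs had overlapping ranges (exact permutation p = 0.2 each, adjusted 0.2).

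**Figure D4:**
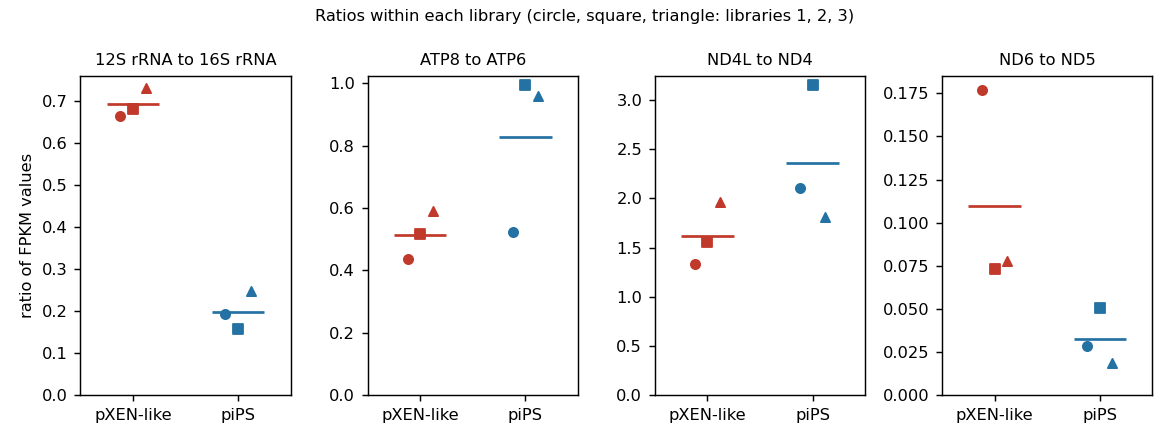
Ratio of the FPKM values of 4 pairs of genes within each library, with a line at the mean of 3 libraries and each axis starting at 0. The ratios of 12S rRNA to 16S rRNA and of ND6 to ND5 do not overlap between the cell types, and the other two pairs do.

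Summed over the 13 protein genes, the level was 300582 ± 5354 FPKM in pXEN-like and 67745 ± 34328 FPKM in piPS cells (SD, n = 3 each). The difference of mean log2 sums was 2.30 (two-sided exact permutation p = 0.1, the smallest possible), and with quantile normalization it turned to -0.090. It was 1.53 and 1.61 with the rescalings without the highest genes and 4.80 with scaling to the ERCC spike-ins, RNAs added from outside the cells. ATP6 and ATP8 held 61.9% to 63.5% of this sum in pXEN-like and 62.4% to 75.3% in piPS libraries. Such shares, and the order of genes by level below, rest on the length correction of a program that is not given in the sources used here. Without both, the sum was 107951 to 115718 FPKM in pXEN-like and 11776 to 26204 FPKM in piPS libraries. As a share of the FPKM total, the 13 genes made up 2.74% to 9.21% in pXEN-like and 0.539% to 4.62% in piPS libraries, and these ranges overlapped (exact permutation p = 0.2). Another total left out the rest of the mitochondrial genome and the 20 highest genes, except ATP6 and ATP8. These were among the 20 but were kept, so that the total held the 13 genes and all remaining genes. The share of the 13 genes was then 17.4 ± 1.17% in pXEN-like and 7.10 ± 3.44% in piPS cells (SD, n = 3 each, exact permutation p = 0.1), with no overlap. The rescalings without the highest genes left ATP6 and ATP8 out of the library scale. The rRNAs amounted to 1.38% to 1.74% of the protein-gene sum in pXEN-like and 3.99% to 4.88% in piPS libraries.

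The order of the protein genes by level was much the same in both cell types, with a Spearman's rho of 0.962 over the 13 genes, which share libraries and precursor RNAs. ATP6 and ATP8 led in both, and ND6 was last in both, with ND2 and ND4 just above it. ATP6 exceeded ND6 223 times in pXEN-like and 782 times in piPS cells by mean FPKM. COX2 came next and then ND1 in pXEN-like cells, and ND1 came before COX2 in piPS cells. Neighbours in the order with overlapping ranges were COX1 and CYTB, CYTB and COX3, and ND5 and ND3 in pXEN-like cells. In piPS cells, whose libraries differed in overall level, the ranges of all neighbouring pairs overlapped except those of the last, ND4 and ND6. Within each piPS library, however, 9 of the 12 neighbouring pairs stood in the same order in 3 of 3 libraries, ND1 above COX2 among them. The exceptions were COX3 and ND3, ND3 and ND5, and ND2 and ND4, each in this order in 2 of 3 libraries. Among all features, ATP6 ranked 8 in pXEN-like and 10 in piPS cells by mean FPKM, ND4 ranked 88 and 458, and ND6 ranked 434 and 2908. 16S rRNA ranked 106 in pXEN-like and 57 in piPS cells.

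The nuclear genes of the same machinery were read from a list of 79 respiratory chain and ATP synthase genes, of which 43 could be matched to an identifier and 42 were tested. Of these, 21 were called higher, 5 lower and 16 were not called in pXEN-like cells, with a median log2 fold change of 0.93. Among all tested features with a symbol, 21.7% were called higher and 31.9% lower, with a median of -0.21. These counts moved with the scaling, to 10 higher and 10 lower after rescaling that left out the 20 highest genes. With ERCC spike-in scaling they became 39 higher and 0 lower. Of the 13 mitochondrial protein genes 12 stayed called with the first, all except ATP8, and all 13 with the second. The median log2 fold change of all features moved as well, from -0.13 as deposited to -0.84 with the first and 1.96 with the second. The share of all features called under these scalings was not computed, so the moved counts have no background beside them. Complex IV was the most uniform, with 5 of 6 tested nuclear subunits called higher and a median of 2.53. COX5B, one of them, had 1142, 446 and 552 FPKM in pXEN-like and 81.8, 113 and 47.5 FPKM in piPS libraries. Complex I was mixed, with 8 of 19 tested subunits called higher, 3 lower and a median of 0.57. NDUFV1, which holds the NADH binding site, fell from 867, 529 and 399 FPKM in piPS to 50.1, 82.2 and 117 FPKM in pXEN-like libraries, a log2 fold change of -2.84.

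Complex II has no mitochondrially encoded subunit. Of its 4 genes SDHD, named after its values had been seen, was called higher and SDHA lower. SDHA, the flavoprotein that oxidises succinate, had 9.20, 7.38 and 9.75 FPKM in pXEN-like and 117, 71.2 and 50.9 FPKM in piPS libraries. In complex III, 3 of 6 tested genes were called higher and 1 lower, and in complex V 3 of 6 were called higher and none lower, where 21.7% of tested features with a symbol were called higher and 31.9% lower. ATP5IF1, among those of complex V called higher, encodes an inhibitor of ATP synthase and not a subunit. ATP5ME, a membrane subunit of ATP synthase, had 1414, 493 and 496 FPKM in pXEN-like and 72.7, 76.9 and 35.2 FPKM in piPS libraries, a log2 fold change of 3.57. Of the 21 nuclear genes called higher, 20 had their highest pXEN-like value in library 1. Without that library 18 were called, and with each of the other libraries left out between 19 and 21. The sum of the 13 mitochondrial genes over the sum of the 43 nuclear ones came to 6.11, 7.92 and 8.08 in pXEN-like and 1.27, 3.52 and 5.04 in piPS libraries, with no overlap (two-sided exact permutation p = 0.1, chosen after the values had been seen).

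**Figure D5:**
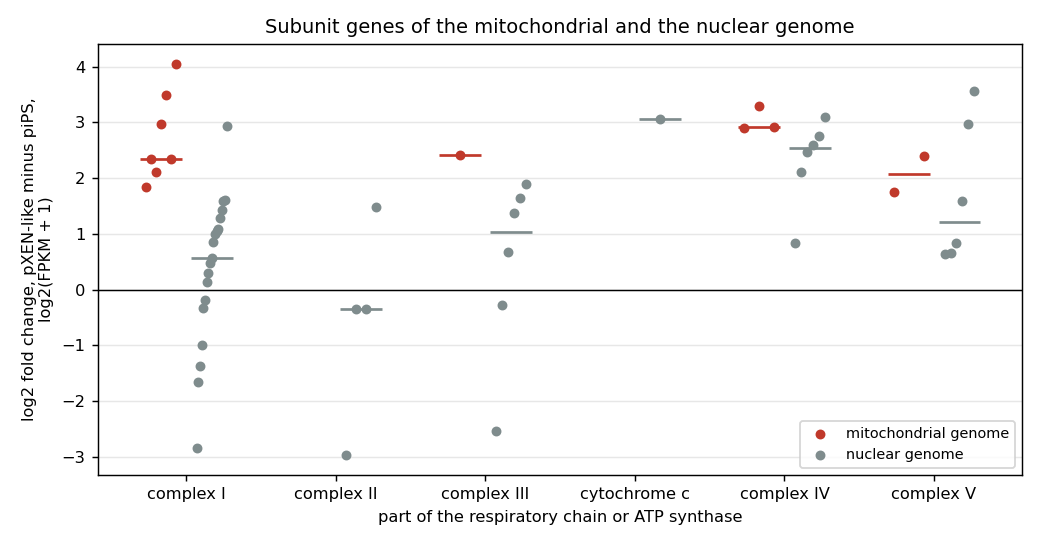
Log2 fold change on the log2(FPKM + 1) scale, pXEN-like minus piPS, of the mitochondrial and the tested nuclear genes of each complex, 1 point per gene, with a line at the median. The nuclear genes of complex V include ATP5IF1, an inhibitor of ATP synthase. With the values as deposited, complex I has a median of 2.35 for its mitochondrial and 0.57 for its nuclear genes, and complex IV of 2.91 and 2.53; ATP6 and ATP8 turned with quantile normalization.

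Of 16 listed genes that copy and transcribe mitochondrial DNA, 11 were matched and 10 tested, and 2 were called higher and 3 lower. These shares are near those of all tested features with a symbol, 21.7% higher and 31.9% lower. TFB2M, the factor that opens the promoter for the mitochondrial RNA polymerase, fell from 65.0, 87.7 and 93.0 FPKM in piPS to 16.6, 5.80 and 21.2 FPKM in pXEN-like libraries (log2 fold change -2.57, adjusted p = 0.0016 from limma). RNASEH1, which removes RNA from RNA-DNA hybrids, fell by 2.06 on the log2 scale. MTERF1, a termination factor that binds next to 16S rRNA, and TEFM, the transcription elongation factor, were called higher with log2 fold changes of 1.78 and 1.11. With the rescaling without the 20 highest genes these counts became 1 higher and 5 lower, and with spike-in scaling 7 higher and 0 lower. The median log2 fold change of all features moved too, to -0.84 and 1.96, and the share of all features called was not computed there. TFAM and POLRMT could not be matched to identifiers here.

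Of 19 listed genes of mitochondrial RNA processing and stability, 17 were tested, and 4 were called higher and 6 lower, again near the 21.7% and 31.9% of all tested features with a symbol. SLIRP, which holds mitochondrial mRNAs stable together with LRPPRC, had 1634, 816 and 894 FPKM in pXEN-like and 189, 316 and 101 FPKM in piPS libraries (log2 fold change 2.53, adjusted p = 0.0020 from limma). LRPPRC itself, named here as the partner of SLIRP after its values had been seen, was called lower, with 48.0, 51.9 and 57.7 FPKM in pXEN-like and 124, 119 and 104 FPKM in piPS libraries (log2 fold change -1.13, adjusted p = 0.00075 from limma). REXO2, an exonuclease that degrades short RNAs, had the highest fold of the list, a log2 fold change of 3.98. TBRG4 and FASTK, RNA-binding proteins of the same family, were called lower, with log2 fold changes of -3.49 and -2.96. FASTK is known to be needed for the ND6 mRNA. These counts were 2 higher and 10 lower with the rescaling and 12 higher and 3 lower with spike-in scaling. Under these scalings all features moved as well, to a median log2 fold change of -0.84 and 1.96, and their share called was not computed. Of 7 regulators of mitochondrial biogenesis, 6 were matched and 2 tested. PPRC1, a coactivator, was called lower, from 23.98 to 62.2 FPKM in piPS to 1.60 to 2.76 FPKM in pXEN-like libraries, a log2 fold change of -3.65. GABPB1, the other tested gene of the list, was higher by 0.86 (adjusted p = 0.0051 from limma), short of the fold limit. With 2 genes tested, this list is too small to set against the 21.7% and 31.9% of all tested features with a symbol.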

How the data were processed

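RNA of 3 pXEN-like and 3 piPS libraries was sequenced. The authors aligned the reads with TopHat2 to the pig genome build Sscrofa10.2 with Ensembl annotation and deposited 1 table of FPKM values for 25322 genes and 92 ERCC spike-ins. The program that made the FPKM values, strand use, and the handling of overlapping genes and of nuclear copies of mitochondrial DNA are not given in the sources used here. How RNA was selected for the libraries is not stated in the study's methods. Groups came from the sample titles. A gene name table matched 11804 identifiers, and RefSeq genes of Sscrofa11.1 were used only for gene order. The members and lists were chosen with earlier results of these data known.

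FPKM values as deposited were taken as log2(FPKM + 1), features whose mean was below 1 FPKM were dropped, and limma 3.58.1 in R 4.3.3 was run with an intensity trend and Benjamini-Hochberg adjustment over all 9953 features. The study's own count test could not be used on FPKM. A call needed an adjusted p under 0.05 together with a log2 fold change of 1 or more in either direction. For levels within the mitochondrial genome, each library was divided by the geometric mean of its 13 protein genes, which left 11308 features. Sums and ratios were compared by two-sided exact permutation tests over the 20 arrangements of labels. All protein and rRNA genes are named, and of each nuclear list the 2 called genes that changed most in each direction. The procedure was tested on simulated data with independent noise for each gene. These data held no shift shared by the genes of a library, so they do not test the procedure under shifts like that of piPS library 1. Other scalings, filters, pseudocounts, limits and left-out libraries were tried.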

Additional observations from a re-analysis of the deposited data

How the results depend on the processing

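Of 270 fold changes of the 15 expressed genes under other settings, 256 kept their direction and side of the threshold, 7 fell below it, 1 passed it and 6 reversed. Settings that altered only the filter, the limits of a call, the intensity trend or the replicate block leave the fold change as it is. In those settings only the call could change, so the count of kept directions includes values that could not reverse. The 14 genes called higher became 11 with quantile normalization, 13 without a filter or with either rescaling, 15 with spike-in scaling and 13 to 14 with a library left out, and 0 were called lower in each. The reversals were 16S rRNA (-0.995), ATP6 (-0.60) and ATP8 (-0.19) with quantile normalization, and 16S rRNA with rescaling without the 20 highest genes (-0.55), with rescaling to the genes other than the 37 mitochondrial and 20 highest (-0.47) and without piPS library 1 (-0.20, in a range up to 0.45 with a library left out). ND1 fell to 0.34 and lost its call with quantile normalization. The median log2 fold change of all features was -0.13 as deposited, 0.05 with quantile normalization, -0.84 and -0.77 with the rescalings and 1.96 with spike-in scaling, for which 20 spike-ins were above 0 in every library. The log2 difference of the summed protein genes was -0.090 with quantile normalization, 1.53 and 1.61 with the rescalings, 4.80 with spike-ins and 1.82 to 2.66 with a library left out. The cause of these shifts was not tested.

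Among the protein genes set against each other, 1 was called lower with the geometric mean without ATP8 and ATP6 (ATP8, -1.04), and with a library left out 0 to 1 were called higher and 0 to 1 lower. The nuclear lists moved with scaling, and so did the median of all features given above. The share of all features called was not computed under these scalings, so the counts have no background beside them. Without the 20 highest genes, the respiratory list had 10 higher and 10 lower, the DNA list 1 and 5, the RNA list 2 and 10, and glycolysis 0 higher. With spike-ins these were 39 and 0, 7 and 0, 12 and 3, and 3 and 3. Of the biogenesis genes, 1 was called higher with spike-in and with median-of-ratios scaling.

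The sample titles do not state whether the shared replicate numbers pair the libraries. Deviations of same-numbered libraries correlated at -0.05, -0.01 and -0.09. The highest values with a differently numbered library were 0.09, 0.01 and 0.05. With 3 libraries per cell type these values cannot decide whether same-numbered libraries were prepared together. With the replicate number as a block, 14 genes were called higher and 0 lower, as without it. With no read counts, the depth behind low values is unknown.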

Other observations

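Glycolysis makes ATP outside the mitochondrion. Of 20 listed genes of the pathway and its regulators, 16 were matched and 15 tested, and 12 were called lower, 1 higher and 2 not at all in pXEN-like cells, with a median log2 fold change of -2.56. Among tested features with a symbol, 31.9% were called lower and 21.7% higher. PFKL, a subunit of phosphofructokinase, had 0.928, 0.808 and 0.581 FPKM in pXEN-like and 131, 60.4 and 27.6 FPKM in piPS libraries (log2 fold change -5.12, adjusted p = 0.00016 from limma). PFKP, another subunit of this enzyme, was listed at 0 in pXEN-like library 3 and had 0.502 and 0.200 FPKM in libraries 1 and 2, against 14.5 to 70.3 FPKM in piPS libraries. LDHA, which turns pyruvate into lactate, was the gene called higher, with 1428, 1373 and 1167 FPKM in pXEN-like and 573, 390.2 and 385 FPKM in piPS libraries (log2 fold change 1.58, adjusted p = 0.00054 from limma). With spike-in scaling 3 genes of the list were called lower and 3 higher, and with the rescaling without the 20 highest genes none was called higher. The median log2 fold change of all features was 1.96 with spike-in scaling and -0.84 with the rescaling, and the share of all features called was not computed there.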
